A study of Mus musculus with 4 samples.

Results

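The Hedgehog pathway was described in the mouse gastric corpus through 9 genes, the ligands Shh and Ihh, the receptor Ptch1, the signal transducer Smo, the transcription factors Gli1, Gli2 and Gli3, and the inhibitors Hhip and Sufu. They were taken by gene symbol from probe sets annotated to a single gene, with the probe set of the highest mean over the 4 arrays standing for each gene, and all 9 were found among 22180 genes measured. Corpus RNA came from 4 groups with 1 array in each. These were parietal cell AMPK knockout mice (KO) given metformin, KO mice given saline vehicle, wild-type mice (WT) given metformin and WT mice given vehicle. KO mice carried Atp4b-cre with floxed alleles of both AMPK catalytic subunit genes (Prkaa1 fl/fl and Prkaa2 fl/fl), on a mixed B6 and FVB background, and the WT mice were C57BL/6, so that genotype and strain background cannot be told apart. The Atp4b promoter drives the recombinase in parietal cells, and cells without it keep both genes. Metformin was given by daily intraperitoneal injection at 300 mg/kg for 14 days to mice of 8 to 10 weeks. The labels do not say how many animals stand behind an array. With 1 array per group, a difference between 2 arrays has no p-value and cannot be set against replicate spread.

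Hedgehog ligands are secreted by epithelial cells and bind Patched receptors, which otherwise hold Smoothened inactive. Active Smoothened lets the Gli proteins leave their inhibitor Sufu and switch on targets, among them Gli1, Ptch1 and Hhip themselves, which makes the level of these genes a common readout of the pathway. In the adult corpus Shh is known as a product of parietal cells and Ihh of surface pit cells, and much of the response lies in the stroma beneath the epithelium.

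Across the array, values are log2 expression after robust multi-array averaging, and a gene was counted as changed at a difference of 1 or more (2-fold). The median of all gene means, 5.03, served as an expression filter, which 11090 genes passed. All 9 Hedgehog genes passed it, although Gli2 (mean 5.10) and Gli1 (mean 5.37) lay close to it. The targeted gene Prkaa1 had values of 8.66 on the KO metformin array, 8.18 on the KO vehicle array, 8.90 on the WT metformin array and 9.46 on the WT vehicle array. Prkaa2 had 7.52, 7.19, 8.02 and 8.90 on these arrays, and where the probes lie relative to the floxed exons is not known here. The mean level of 13 parietal cell markers lay between 9.59 and 10.16 on the 4 arrays, and that of 4 pit cell markers between 13.03 and 13.32, while the intestinal gene Cdx2 (3.11 to 4.52) and the antral and duodenal gene Pdx1 (3.92 to 5.02) stayed under the filter value on every array. The antral hormone gene Gast was at 5.40 to 5.88. In bulk RNA, fewer cells of a type and less RNA per cell cannot be told apart.

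The place of the KO vehicle array differed among the 9 genes. Ptch1, Smo, Gli2, Gli3, Hhip and Sufu were at their lowest there, while Ihh and Gli1 were at their highest. Shh was at neither. The share of all genes at their highest there was not counted. Having the KO vehicle array as the lowest of the 4 was common, at 44.3% of all genes past the filter, so the share of 6 of 9 is to be read beside that figure. For Ptch1, Smo, Gli2, Hhip and Sufu the WT vehicle array was also the highest, a combination found in 28.8% of all genes. These 5 had the full order WT vehicle, KO metformin, WT metformin and KO vehicle from high to low, which 15.2% of all genes shared.

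**Figure D1:**
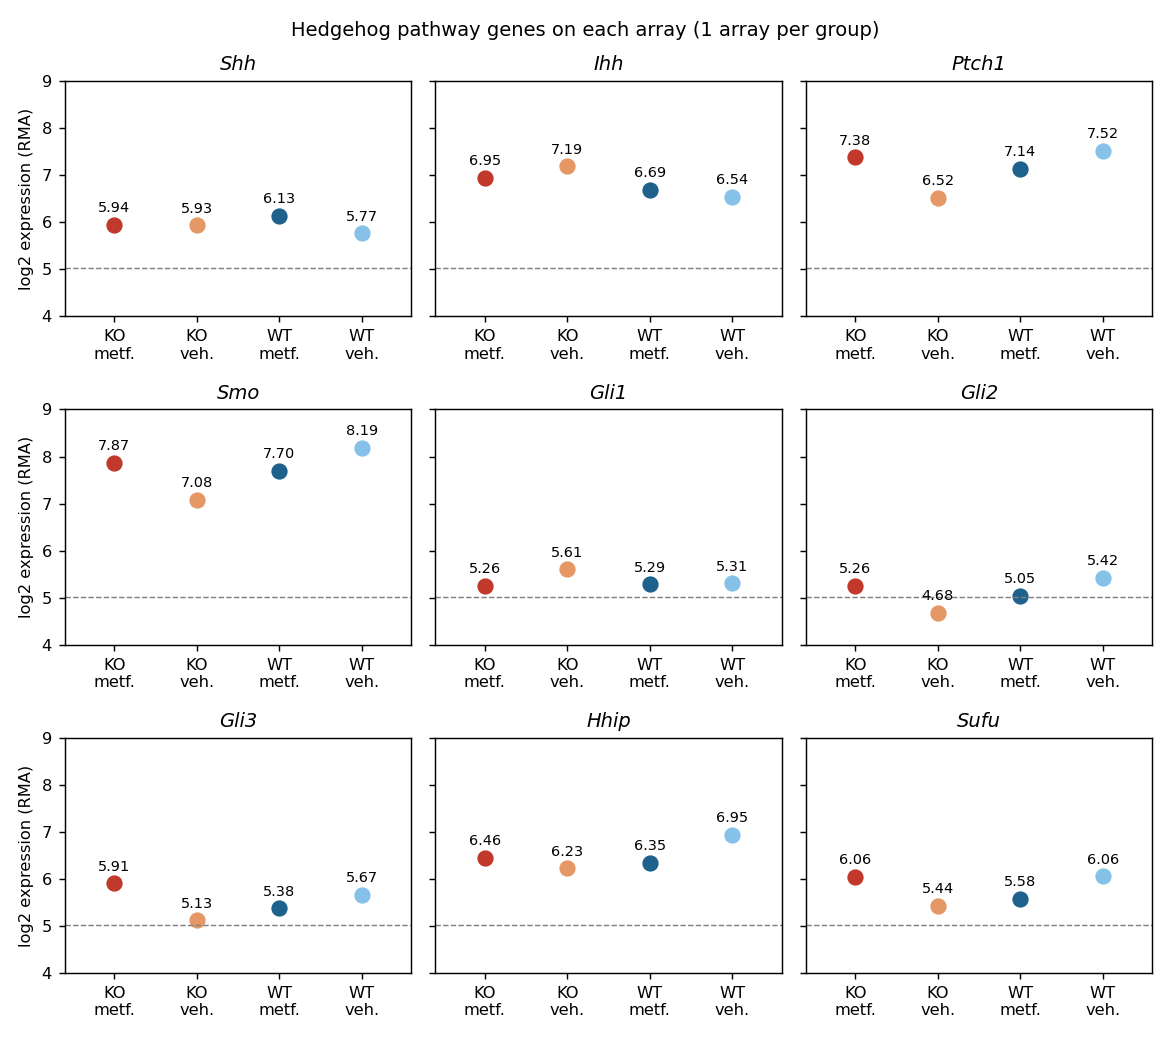
Log2 expression of the 9 Hedgehog genes (vertical axis) on the KO metformin, KO vehicle, WT metformin and WT vehicle arrays, with 1 point for each array. The dashed line is the expression filter at 5.03, and levels are to be compared within a gene, since probe sets differ in brightness. Smo spans 7.08 to 8.19 and Ptch1 6.52 to 7.52, both lowest on KO vehicle, while Shh stays between 5.77 and 6.13.

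Of the ligands, Shh was highest on the WT metformin array and Ihh was higher on both KO arrays. Shh, the Hedgehog ligand of parietal cells, had 5.94 on the KO metformin array, 5.93 on the KO vehicle array, 6.13 on the WT metformin array and 5.77 on the WT vehicle array. It was thus nearly the same on both KO arrays, and the WT arrays lay on either side of them. Metformin against vehicle differed by 0.01 in KO and by 0.37 in WT, and KO differed from WT by 0.17 under vehicle and by -0.19 under metformin. Of all genes past the filter, 9.14% had a higher difference of metformin from vehicle in WT than Shh. The proton pump genes Atp4a and Atp4b, which mark the cells that make Shh, differed by -0.42 and -0.43 in KO against WT under vehicle. In the same comparison the median of the 13 parietal cell markers was -0.42, against -0.22 over all genes, and 3 of the 13 (Aqp4, Slc9a4 and Slc26a9) were at least 2-fold lower, as 8.12% of all genes were. The part of parietal cell content in the Shh values was not tested.

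Ihh, the ligand of pit cells, had 6.95 on the KO metformin array, 7.19 on the KO vehicle array, 6.69 on the WT metformin array and 6.54 on the WT vehicle array. Both KO arrays lay above both WT arrays, and the share of all genes with this order was not counted. KO was above WT by 0.65 with vehicle (1.56-fold) and by 0.26 with metformin. Of all genes past the filter, 6.16% had a higher difference with vehicle and 19.5% with metformin. Averaged over both treatments, the difference was 0.45 ± 0.30 (SE) and did not pass the test in limma (adjusted p = 0.999). The pit cell markers Gkn1, Gkn2, Tff1 and Muc5ac had differences of -0.21, -0.01, 0.23 and -0.73 in KO against WT under vehicle, so that 1 of the 4 was higher in KO. The antrum and duodenum genes Cdx2 (1.41), Pdx1 (1.10) and Gast (0.46) were also higher in KO in this comparison, with Cdx2 and Pdx1 at their highest on the KO vehicle array though under the filter value. Their part in the Ihh values was not tested.

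Ptch1 encodes the ligand-binding receptor and is itself switched on by the pathway. It had 7.38 on the KO metformin array, 6.52 on the KO vehicle array, 7.14 on the WT metformin array and 7.52 on the WT vehicle array. The KO vehicle array stood 0.62 below the next lowest, and the other 3 arrays lay within 0.38 of each other. KO was lower than WT by 0.998 under vehicle, just short of the 2-fold rule, and higher by 0.24 under metformin.

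Smo, which encodes the transducer that Ptch1 restrains, followed the same course. Its values were 7.87 on the KO metformin array, 7.08 on the KO vehicle array, 7.70 on the WT metformin array and 8.19 on the WT vehicle array. Under vehicle KO was 2.16-fold lower than WT (-1.11), and under metformin the genotypes differed by 0.16. Smo was the single member past 2-fold in KO against WT under vehicle (1 of 9), where 8.12% of all genes were lower and 2.31% higher by this measure (5.07% and 3.33% after cyclic loess, which rescales the arrays against each other). The call of Smo was lost after cyclic loess (-0.86) and with the trend on gene length removed (-0.83). After each gene was centred on its own mean, the profiles of Ptch1 and Smo lay 0.13 apart (Euclidean distance over the 4 arrays), the closest pair among the 9. Of all genes past the filter, 65 lay as close to Ptch1 as Smo did, Smo included.

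The upstream sequences of Smo and Ihh, the members with the lowest and the highest difference under vehicle, are shown as RefSeq gives them (GRCm38.p6). Each run covers the 250 bases before the annotated start, 5′ to 3′ on the strand of the gene, with the GC box GGGCGG or its reverse complement CCGCCC in capitals. The Smo window lies at chr6:29735247-29735496 on the plus strand and the Ihh window at chr1:74951673-74951922 on the minus strand.
Smo: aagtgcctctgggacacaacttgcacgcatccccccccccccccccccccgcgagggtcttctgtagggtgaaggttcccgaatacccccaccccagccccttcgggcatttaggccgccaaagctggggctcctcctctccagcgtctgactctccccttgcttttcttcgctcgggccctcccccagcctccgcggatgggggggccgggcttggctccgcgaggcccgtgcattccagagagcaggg
Ihh: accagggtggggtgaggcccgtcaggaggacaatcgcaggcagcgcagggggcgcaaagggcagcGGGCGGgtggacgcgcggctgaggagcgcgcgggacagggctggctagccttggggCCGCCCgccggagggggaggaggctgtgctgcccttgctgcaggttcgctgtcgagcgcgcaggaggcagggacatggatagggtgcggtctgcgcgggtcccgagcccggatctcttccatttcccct
Ihh has 2 GC boxes and Smo has none. Both are rich in G and C, at 72.0% in Ihh and 68.4% in Smo, against a median of 52.4% over 32851 promoters of the same length. Promoters of Gli2, Gli3, Hhip, Ptch1 and Sufu were also matched, and each holds a GC box, which 32.7% of all promoters do. The Gli binding sequence TGGGTGGTC, searched on both strands, was in none of the 7 matched windows and in 0.225% of all promoters. So rare a sequence would be absent from most sets of 7 windows, so its absence does not show that these genes lack Gli sites. The Ptch1 and Gli2 windows also lie within the RefSeq span of their genes, not before its outermost start. Shh and Gli1 were not matched.

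Under vehicle Gli1 was higher in KO than in WT, while Gli2 and Gli3 were lower. Gli1, an activator and the most direct target gene of the pathway, had 5.26 on the KO metformin array, 5.61 on the KO vehicle array, 5.29 on the WT metformin array and 5.31 on the WT vehicle array. The KO vehicle array was thus 0.30 above the next, and the other 3 lay between 5.26 and 5.31. KO against WT under vehicle gave 0.30 for Gli1, -0.998 for Ptch1 and -0.72 for Hhip, all of them target genes. Of all genes past the filter, 16.1% had a higher difference than Gli1 there. Under metformin the same comparison gave -0.03 for Gli1.

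Gli2, the main activator of target genes, had 5.26 on the KO metformin array, 4.68 on the KO vehicle array, 5.05 on the WT metformin array and 5.42 on the WT vehicle array. Of all values of the 9 genes, that of Gli2 on the KO vehicle array alone lay below the filter, and its difference of -0.74 against WT is not read as a fold. Gli3, which acts mostly as a repressor when no ligand is present, had 5.91 on the KO metformin array, 5.13 on the KO vehicle array, 5.38 on the WT metformin array and 5.67 on the WT vehicle array. It was the only Hedgehog gene with its highest value on the KO metformin array, and it had the largest difference of the 9 between the genotypes under metformin (0.53).

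Of the inhibitors, Hhip encodes a membrane protein that binds and sequesters ligand, and Sufu encodes the cytoplasmic protein that holds Gli factors back. Hhip had 6.46 on the KO metformin array, 6.23 on the KO vehicle array, 6.35 on the WT metformin array and 6.95 on the WT vehicle array, so that the WT vehicle array stood 0.49 above the next. Sufu had 6.06 on the KO metformin array, 5.44 on the KO vehicle array, 5.58 on the WT metformin array and 6.06 on the WT vehicle array. WT vehicle was above KO metformin by only 0.00286, so that the place of Sufu in the order given above rests on that gap, and the remaining arrays were lower. A further probe set of Sufu, with a mean of 4.31 under the filter value, did not follow it, with 4.35, 4.24, 4.55 and 4.09 on these arrays.

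With metformin, 7 of the 9 genes were higher and 2 lower in KO, and 2 were higher and 7 lower in WT. Most genes past the filter went these ways too, with medians above 0 in KO and below 0 in WT. Set against these medians, 6 of the 9 lay above in KO and 6 below in WT. In KO the difference of metformin from vehicle ran from -0.34 (Gli1) to 0.86 (Ptch1), with Smo at 0.79, Gli3 at 0.78, Sufu at 0.62, Gli2 at 0.58 and Hhip at 0.23. The median was 0.58, against 0.11 over all genes, and 0 of the 9 passed 2-fold, where 2.44% of all genes were higher and 0.613% lower. In the same comparison 9 of 10 smooth muscle markers were higher, at a median of 0.53, and 5 neck cell markers had a median of 0.96 with 2 past 2-fold (Muc6 and A4gnt). The part of either list in the Hedgehog values was not tested. In WT the difference ran from -0.60 (Hhip) to 0.37 (Shh), with Smo at -0.49, Sufu at -0.48, Ptch1 at -0.38, Gli2 at -0.37 and Gli3 at -0.29. The median was -0.37, against -0.14 over all genes, and again 0 of the 9 passed, where 0.775% of all genes were higher and 0.929% lower. Higher in KO and lower in WT were 6 of the 9 (Ptch1, Smo, Gli2, Gli3, Hhip and Sufu), a combination that 46.6% of all genes showed.

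The KO response minus the WT response was past 2-fold for 4 of the 9, Smo (1.27), Ptch1 (1.23), Sufu (1.09) and Gli3 (1.07), where 11.2% of all genes were as far in this direction and 3.61% in the other. Gli2 (0.95) and Hhip (0.83) came next, and Gli1 (-0.33), Shh (-0.36) and Ihh (-0.39) had the opposite sign. The median of the 9 was 0.95, against 0.26 over all genes. After cyclic loess Smo (0.99) and Ptch1 (0.97) lay just under 2-fold, and with the mean of its 2 probe sets Sufu was at 0.37. With the trend on gene length removed, 0 of the 9 passed, with Smo at 0.97, Ptch1 at 0.83, Sufu at 0.67 and Gli3 at 0.60, where 5.55% of all genes were higher and 4.25% lower past 2-fold. The median of the 9 was then 0.49. Neck cell markers also differed here, with 4 of 5 past 2-fold higher and 1 lower, and their part in the Hedgehog values was not tested.

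**Figure D2:**
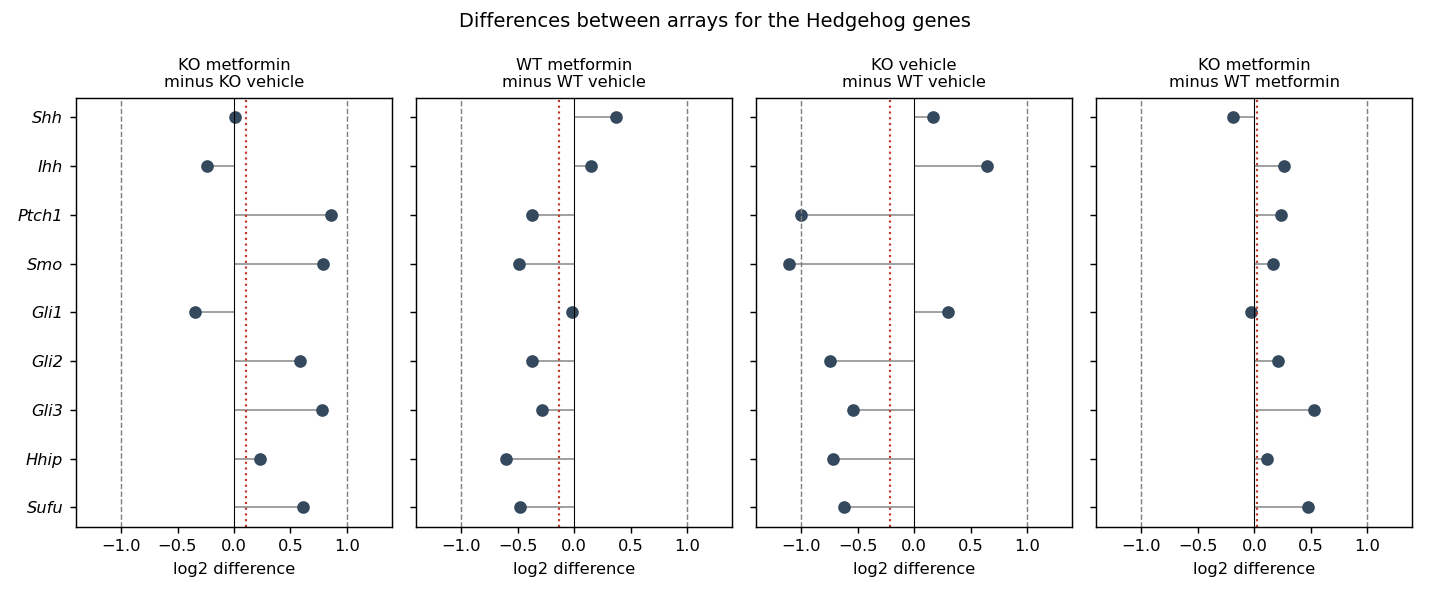
Log2 differences (horizontal axis) of the 9 Hedgehog genes in KO metformin minus KO vehicle, WT metformin minus WT vehicle, KO vehicle minus WT vehicle and KO metformin minus WT metformin, with 1 point for each gene. Dashed lines mark 2-fold and the dotted line the median of all genes past the filter. In KO vehicle minus WT vehicle, Smo (-1.11) and Ptch1 (-0.998) lie at the 2-fold line and Ihh (0.65) on the opposite side, and in KO metformin minus WT metformin all points lie between -0.19 and 0.53.

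Under vehicle the 9 genes had a median difference of -0.62 between KO and WT, against -0.22 over all genes, with 6 of the 9 lower in KO. Under metformin the median was 0.21, against 0.02, with 7 of the 9 higher in KO and 7 above the median of all genes. There 0 of the 9 passed 2-fold, where 0.532% of all genes were higher and 0.388% lower. This last comparison and that of WT metformin with WT vehicle do not use the KO vehicle array. The other comparisons share it, so that the lower values of Ptch1 and Smo in KO under vehicle and their higher values with metformin in KO rest in part on the same measurements. KO against WT under vehicle and metformin against vehicle in WT likewise share the WT vehicle array, the highest for 5 of the 9. Lower values in both also rest in part on the same measurements. Effects averaged over 2 arrays against 2 were fitted in limma over all 11090 genes. For metformin against vehicle they lay between -0.19 (Hhip) and 0.25 (Gli3), and for KO against WT between -0.47 (Smo) and 0.45 (Ihh). In limma 0 of the 9 passed the adjusted p in either effect, and 0 of the 9 had an unadjusted p under 0.05. Of all genes, 0% passed for treatment and 0.0451% for genotype, and 0.289% and 3.37% had an unadjusted p under 0.05.

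The 3 members that were higher in KO under vehicle were also those with the shortest genes. Shh, Ihh and Gli1 span 10262, 6358 and 11698 bases (RefSeq, GRCm38.p6), and the other 6 span 25870 (Smo) to 266304 bases (Gli3). Over all protein-coding genes past the filter, the KO minus WT difference under vehicle also moved with span, with a median of 0.01 over 2493 genes under 10 kb, -0.28 over 6631 genes of 10 to 100 kb and -0.35 over 1426 genes over 100 kb. The trend at the span of Smo was -0.28 and at that of Ptch1 -0.36. After subtraction of the trend, Smo was at -0.83, Ptch1 at -0.64, Gli2 at -0.37, Hhip at -0.35, Sufu at -0.25 and Gli3 at -0.16. Gli1 was then at 0.46, Shh at 0.30 and Ihh at 0.71. All 9 differences kept their sign, at a smaller size for the 6 that were lower in KO and a larger one for the 3 that were higher.

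**Figure D3:**
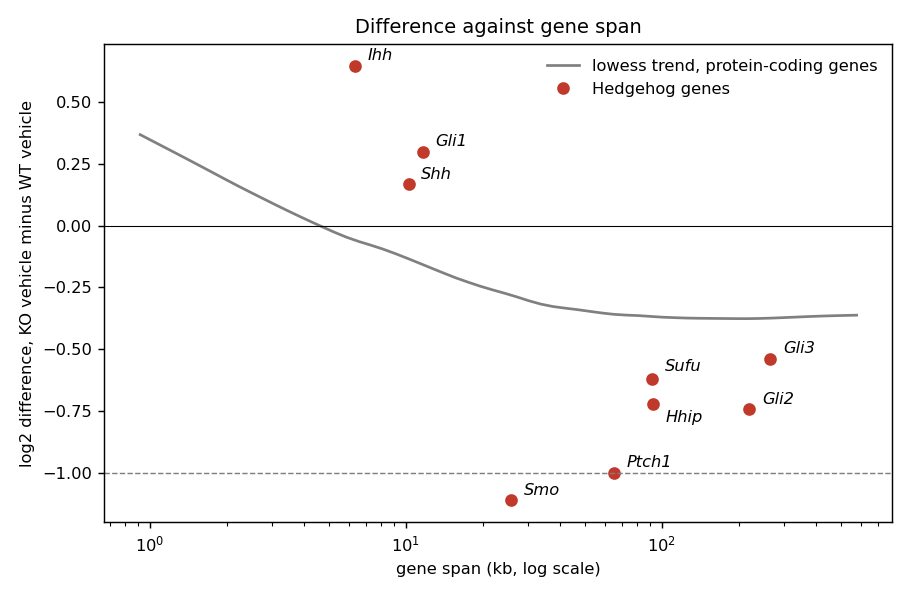
Difference of log2 expression, KO vehicle minus WT vehicle (vertical axis), against gene span in kb on a log scale (horizontal axis) for the 9 Hedgehog genes (points), with the lowess trend over protein-coding genes past the filter (line). The dashed line marks 2-fold. Ihh (0.65), Gli1 (0.30) and Shh (0.17) lie above the line, and Smo (-1.11) and Ptch1 (-0.998) lie farthest below it.

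Several reported target genes of the pathway were also lower in KO under vehicle. Of 12 such genes measured, 9 passed the filter, and 4 of these were at least 2-fold lower and 0 higher (8.12% and 2.31% of all genes), at a median of -0.57. The 3 under the filter were Foxl1 (-0.22), Snai1 (0.44) and Mycn (0.49). The lowest were the bone morphogenetic proteins Bmp7 (-2.07) and Bmp4 (-1.96), both secreted growth factors, the secreted Wnt inhibitor Sfrp1 (-1.95) and the mesenchymal transcription factor Foxf1 (-1.002). Bmp4 had 8.11 on the KO metformin array, 6.95 on the KO vehicle array, 7.90 on the WT metformin array and 8.91 on the WT vehicle array. Sfrp1 had 8.79, 7.57, 8.94 and 9.51 on the same arrays, and Bmp7 had 7.57, 6.30, 7.65 and 8.37. All 3 were lowest on the KO vehicle array and highest on the WT vehicle array, as 28.8% of all genes were. They were named for their low difference between these arrays, so this order is no separate observation.

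With metformin in KO, Bmp7 (1.27), Sfrp1 (1.22) and Bmp4 (1.16) were at least 2-fold higher, as 2.44% of all genes were. All 9 targets past the filter were positive and above the median of all genes (0.11), at a median of 0.54. In WT, Bmp4 (-1.01) was 2-fold lower, as 0.929% of all genes were. The median of the 9 was -0.41, against -0.14 over all genes, with the growth factor Wnt5a (0.22) as the highest. Between the metformin arrays of both genotypes 0 of the 9 passed 2-fold, where 0.532% of all genes were higher and 0.388% lower. The cell cycle gene Ccnd2 (0.59) and the survival gene Bcl2 (0.48) were highest there, and Wnt5a (-0.20) and Sfrp1 (-0.15) lowest.

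The remaining pathway genes showed smaller differences with a few exceptions. Of 5 other ligand, receptor and co-receptor genes measured, the co-receptors Gas1, Boc and Cdon passed the filter, with KO minus WT under vehicle at -0.93, -0.51 and -0.26. The ligand Dhh was at 3.40 to 3.67 on the 4 arrays, under the filter value on each. Among 6 genes of ligand processing and release, 3 passed. Their differences were -0.45 for Disp1, which encodes a transporter that releases ligand, -0.23 for Scube1 and -0.08 for Disp2. Those under the filter were Scube2 (-1.23), Scube3 (-0.61) and Hhat (0.05), whose differences are not read as folds. Of 17 ciliary and cytoplasmic regulators measured, 13 passed, with a median of -0.11, and 2 were at least 2-fold lower in KO under vehicle. These were the kinase genes Gsk3b (-1.24) and Prkaca (-1.16), whose products phosphorylate Gli proteins, while Tulp3 (0.22) and Prkar1a (0.12) were highest. Gsk3b was also at least 2-fold higher with metformin in KO (1.26). Over these 4 lists together, 6 of 28 genes past the filter were at least 2-fold lower and 0 higher in KO under vehicle (8.12% and 2.31% of all genes). With metformin 4 were higher and 0 lower in KO (2.44% and 0.613% of all genes), and 0 were higher and 1 lower in WT (0.775% and 0.929%). Between the metformin arrays 0 of the 28 passed (0.532% of all genes were higher and 0.388% lower).

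**Figure D4:**
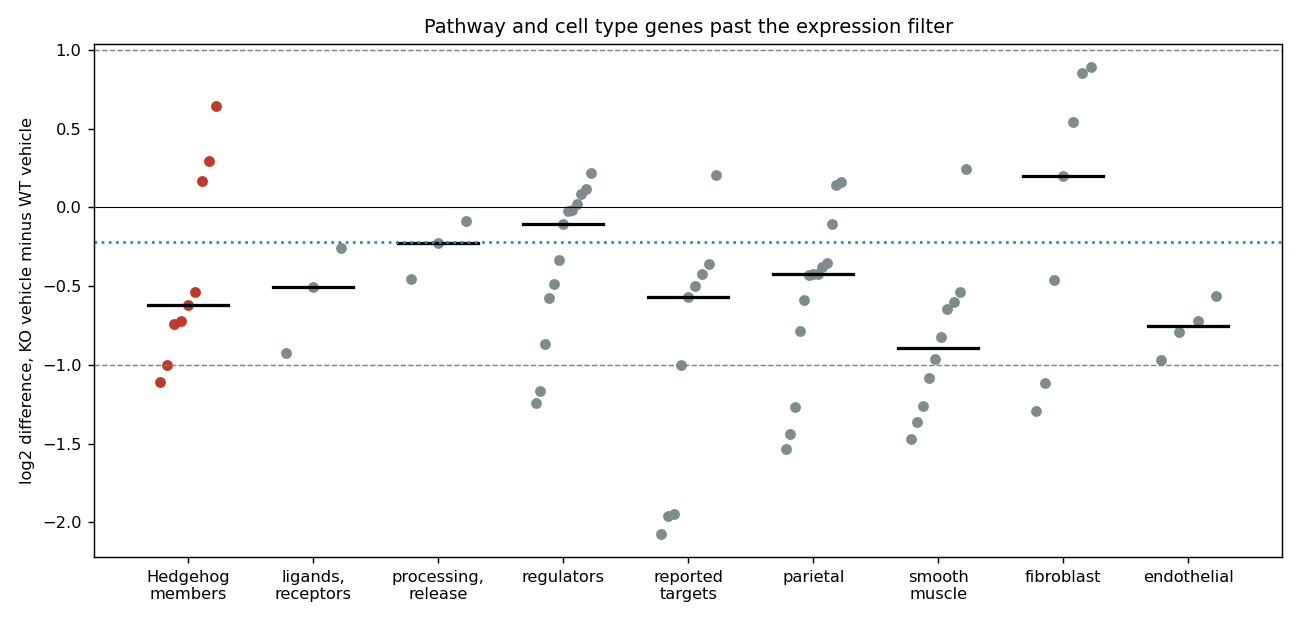
Difference of log2 expression, KO vehicle minus WT vehicle (vertical axis), for genes past the filter in the Hedgehog set, 4 lists of other pathway genes and 4 lists of cell type markers (horizontal axis). Each point is a gene, the bar is the list median, the dotted line is the median of all genes (-0.22) and the dashed lines mark 2-fold. Bmp7, Bmp4 and Sfrp1 form the group near -2.0 among the targets, and the smooth muscle and endothelial medians (-0.89 and -0.76) lie below that of the Hedgehog genes (-0.62).

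Stromal markers moved in the same comparison. Of 10 smooth muscle markers, 9 were lower in KO under vehicle, 4 of them by at least 2-fold (8.12% of all genes), at a median of -0.89, and their mean level was 9.42 on the KO metformin array, 8.83 on the KO vehicle array, 9.82 on the WT metformin array and 9.68 on the WT vehicle array. All 4 endothelial markers were lower, at a median of -0.76. Under vehicle the 7 fibroblast markers went both ways, from Dcn (-1.29) and Pdgfra (-1.11) to Col1a1 (0.89) and Thy1 (0.85), and their mean level was 7.79, 7.83, 8.06 and 7.88 on the same arrays. Their part in the values of Ptch1, Smo and the targets was not tested. Between the metformin arrays the smooth muscle median was -0.45, the endothelial median -0.27 and the fibroblast median -0.26, with all 7 fibroblast markers lower in KO, where the median of the Hedgehog genes was 0.21.

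Most squamous markers stood apart on the KO metformin array, where the mean level of the 7 measured was 6.92, against 4.58 on the KO vehicle array, 4.33 on the WT metformin array and 3.998 on the WT vehicle array. With metformin in KO the 4 past the filter differed by 4.69 (Krtdap), 3.25 (Krt10), 3.12 (Cnfn) and 1.67 (Krt13). Krtdap and Krt13 lay above the filter value on the KO metformin array only. They passed the filter through that array, so their differences are not read as folds or set beside a share of all genes. Of those under the filter, Krt4 differed by 3.55, while Krt14 (-0.17) and Trp63 (0.22) did not follow. On the KO vehicle array 5 of the 7 lay under the filter value. Their part in the difference of metformin from vehicle in KO was not tested.

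The genes with the profiles nearest to Shh over the 4 arrays were 1700018G05Rik, Stard4, Fbxl22, Cenpa and Ssr2, at distances of 0.02 to 0.04 on the log2 scale. Those nearest to Gli1 were Arrdc2, Nod2, Rasgrp2, Htra4 and Prodh, also at 0.02 to 0.04. Such nearness was common, since 1571 genes lay within 0.3 of Shh and 1675 within 0.3 of Gli1. None of the other 8 Hedgehog genes was among the 5 nearest of either.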

How the data were processed

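Labelled cDNA from corpus RNA of 4 mouse groups was hybridised to 1 Affymetrix array each (WT Plus reagents, per the labels). The authors deposited log2 values made with RMA and Partek, per the submitters' processing notes, which give no versions; that the scale is log2 follows from the range of the values. Groups came from sample titles. Of 41345 probe sets, 23521 have 1 gene in the platform annotation, and 23328 of these were found in RefSeq (GRCm38.p6), which gave symbols, gene spans and upstream sequences. The build of the array annotation is unknown here, so the only coordinates printed are those of the RefSeq upstream windows, with their build.

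Differences are of log2 values. In limma 3.58.1 (R 4.3.3), lmFit and eBayes fitted genotype and treatment as additive terms with Benjamini-Hochberg adjustment. The 1 residual degree of freedom also holds any difference between responses. The fit was tested on simulated data with added genotype differences only. These data held no difference between responses, so the test does not show how the fit does where responses differ. Python 3.11.15 and statsmodels 0.14.6 (lowess, span 0.3) did the rest. Alternatives were cyclic loess, median centring, the mean of probe sets, a 1.5-fold rule, other filters, removal of the length trend and a variance trend. The number of arrays limits the precision.

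Named genes are the 9 members, list genes past 2-fold or else the 2 highest and 2 lowest, and the 5 profiles nearest to Shh and Gli1. A few others were named after their values were seen. Members and lists were chosen with earlier results of these data known. Some listed genes are not reported here.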

Additional observations from a re-analysis of the deposited data

Results flagged for a closer look

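The metformin responses of 7 Hedgehog genes had opposite signs in the 2 genotypes, with 1 pair of arrays in each, and the difference between the responses was not tested. The KO response minus the WT response was 1.27 for Smo, 1.23 for Ptch1, 1.09 for Sufu, 1.07 for Gli3, 0.95 for Gli2 and 0.83 for Hhip, which were higher with metformin in KO and lower in WT, and -0.39 for Ihh, which was lower in KO and higher in WT. The second probe set of Sufu went the opposite way (-0.34, with 0.45 for metformin in WT), and the mean of both gave 0.37. Higher in KO and lower in WT was also the case for 46.6% of all genes past the filter. The share of all genes with opposite signs in either direction was not counted, so the count of 7 has no figure to be read beside.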

How the results depend on the processing

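The counts of Hedgehog genes past 2-fold depended on the scaling and on the rule in some comparisons. In KO against WT under vehicle the count of 1 became 0 after cyclic loess and 0 with the length trend removed (the most negative value was then Smo in both), 2 with each array centred on its median (Smo and Ptch1) and 6 under a 1.5-fold rule, which 31.9% of all genes passed. For the difference of responses the count of 4 became 2 with a filter at the 75th percentile, which 3 of the 9 genes pass, and 0 with the length trend removed (Smo 0.97, Ptch1 0.83, with 9.79% of all genes past 2-fold). It was 3 to 6 under the other alternatives, with 6 under the 1.5-fold rule, which 38.2% of all genes passed, and 5 with centring, where 19.2% passed 2-fold. A 1.5-fold rule gave 4 for metformin in KO, where 16.2% of all genes passed it, and 1 for metformin in WT, where 12.6% did. The counts for metformin in KO and in WT stayed at 0 under the other alternatives, and that between the metformin arrays was 0 under all 7. In limma 0 of the 9 passed under the main setting and the 4 alternatives, for either effect. No difference past 2-fold changed sign. The signs of Shh for metformin in KO (-0.03 after cyclic loess, -0.08 with the length trend removed) and of Gli1 for metformin in WT (0.06 with the length trend removed) changed, from values near 0. The median difference of all genes between KO and WT under vehicle was -0.22 in the deposited values, -0.07 with cyclic loess and -0.37 with centring, and 6 of the 9 genes lay below it each time. Without the filter it was 0.03, and with the filter at the 75th percentile -0.30, so that it moved with expression level. Smo and Ptch1 had the highest means of the 9. In that comparison 8.12% of all genes were lower and 2.31% higher past 2-fold, against 5.07% and 3.33% with cyclic loess and 12.3% and 1.43% with centring. With the mean of both Sufu probe sets its difference of responses was 0.37. No paired analysis was possible because each group has 1 array and the labels carry no replicate numbers. Levels near the filter value, as for Gli2, limit what can be read.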
